A study of Homo sapiens with 7 samples.

Results

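The BCL2 family decides whether the mitochondrial pathway of apoptosis is started, and 10 of its genes were described here in HCT116 cells grown with bafilomycin A1. They were chosen by name: 4 pro-survival genes (BCL2, BCL2L1, BCL2L2 and MCL1), 2 effectors (BAX and BAK1) and 4 BH3-only genes (BID, BBC3, PMAIP1 and BCL2L11). Every non-control spot whose gene name on the array equals one of these symbols was taken, which gave 42 spots of 15 probes, out of 58717 spots, 50599 probes and 36337 gene names in all. HCT116 is a near-diploid human colon carcinoma cell line, here in the derivative that carries the histone H2B fused to GFP. Bafilomycin A1, which blocks the proton pump of vacuoles and lysosomes and thereby autophagic degradation, was given at 10 nM for 30 h to the cells of 4 samples, each measured on 1 single-colour Agilent array. The labels number them as replicates 1 to 4 and do not say whether these were separate cultures, so the spread given below may in part be technical. As the 3 untreated samples were not analysed here, no treated sample is set against an untreated one and nothing below is an effect of the drug. With 1 condition there is also no test between groups, and all values describe levels in treated cells and their error.

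Pro-survival BCL2 proteins sit on the outer mitochondrial membrane and hold the effectors BAX and BAK1 in check. When the effectors are freed they assemble into pores, cytochrome c leaves the mitochondrion and caspases are activated. The BH3-only proteins are the sensors upstream of this step: each binds pro-survival proteins through its BH3 segment, and some of them also activate the effectors directly. Several of these genes are regulated at the level of mRNA, with BBC3, PMAIP1 and BAX known as targets of p53, and the MCL1 protein is known for its rapid turnover.

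The probes are shown first, since several results below turn on probes of one gene that behaved differently. Each is a 60-base oligonucleotide, and the array file gives its sequence and its place on GRCh37. BCL2, BAX and BID are represented by 2 probes each, BCL2L11 by 3, and the other 6 genes by 1. For the genes with several probes, bases 31 to 60 are printed 5′ to 3′, with G and C in capitals, because base composition is one property in which probes of the same gene differ.
BCL2 probe 1, chr18:60790723-60790782, minus strand: aaaaataCGGtaaGGataCtttaCatGGtt
BCL2 probe 2, chr18:60985401-60985460, minus strand: tGtGtGtGGaGaGCGtCaaCCGGGaGatGt
BAX probe 1, chr19:49464904-49464963, plus strand: tatGGCatttttCtGGGaGGGGtGGGGatt
BAX probe 2, chr19:49464454-49464513, plus strand: GaCCCtCtGaCCCtaGCtCtttCCtttttt
BID probe 1, chr22:18218182-18218241, minus strand: tattttaaaGaCaatGttaaaCttataaCC
BID probe 2, chr22:18218265-18218324, minus strand: tataGCtGCttCCaGtGtaGaCGGaGCCCt
BCL2L11 probe 1, chr2:111925892-111925951, plus strand: GGGtaattGCCaCtttaCttGtGCaataCt
BCL2L11 probe 2, chr2:111886352-111886411, plus strand: tatGGtCattGGtGattaaataaaatGtat
BCL2L11 probe 3, chr2:111878705-111878764, plus strand: tGaCtCtGaCtCtCGGaCtGaGaaaCGCaa

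Over its whole length BCL2 probe 1 holds 35.0% G and C and probe 2 holds 55.0%, and the sites of both are 194618 bases apart. The BAX probes lie 390 bases apart, and both hold 45.0%. The BID probes are 23 bases apart, with 35.0% for probe 1 and 53.3% for probe 2. BCL2L11 probe 1 lies 39480 bases from probe 2 and 47127 bases from probe 3, with 36.7%, 35.0% and 51.7% G and C for probes 1 to 3. BAX probe 1 is listed in the file for 4 RefSeq transcripts and BAX probe 2 for 1. BCL2L11 probe 1 is listed for 4, probe 2 for 1 and probe 3 for 2. All RefSeq transcripts that the file lists for the 15 probes belong to the named gene in the RefSeq gene table. The hexamer AATAAA, the usual polyadenylation signal, was searched on the printed strand. It is held by 2 of the 15 probes, PMAIP1 from base 36 and BCL2L11 probe 2 from base 49, and by 7.88% of all probes on the array. A stop codon in each of the 3 forward frames, which a wholly coding stretch cannot hold, was found in the probes of BCL2L2 and PMAIP1 and in BCL2L11 probe 2, and in 19.1% of all probes. Where the other probes lie in their transcripts was not analysed here.

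All 10 genes and all 15 probes were well above background on all 4 arrays, that is, the scanner software marked more than 50% of a probe's spots in this way. The same held for 52.5% of all gene names and 48.7% of all probes. The arrays measure bulk RNA, in which fewer cells that express a gene and less RNA per cell cannot be told apart. Across the whole array 55.6% to 60.4% of the non-control spots were well above background, and 514 to 725 spots were marked as outliers on replicates 1, 2 and 4 against 2249 on replicate 3. Only 2 of these outliers were spots of family members, 1 on replicate 2 and 1 on replicate 3, and they were left out. As a check of the cell line, 7 of 8 epithelial and colon markers were detected on all 4 arrays. EPCAM lay at 8.84 ± 0.15, KRT18 at 10.60 ± 0.05, CDH1 at 5.81 ± 0.31, CDX2 at 3.84 ± 0.09 and CDX1 at 0.75 ± 0.37 (SD, n = 4, log2 relative to the array median). CDX1 had 1 of 2 probes detected, and VIL1, which encodes villin, was well above background on no array. Of 8 markers of other cell types, COL1A2, PECAM1 and ALB were well above background on no array and GFAP on 1. ACTA2, COL1A1, CD3E and PTPRC were detected, the last with 1 of 5 probes.

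Levels are given throughout as the log2 of the background-subtracted signal minus the median of the array. A level of 0 is thus the signal of the median probe, and each step of 1 is a doubling. The brightness of a probe depends on its sequence as well as on its transcript, so levels of different genes, or of different probes, are printed side by side and are not ranked.

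**Figure D1:**
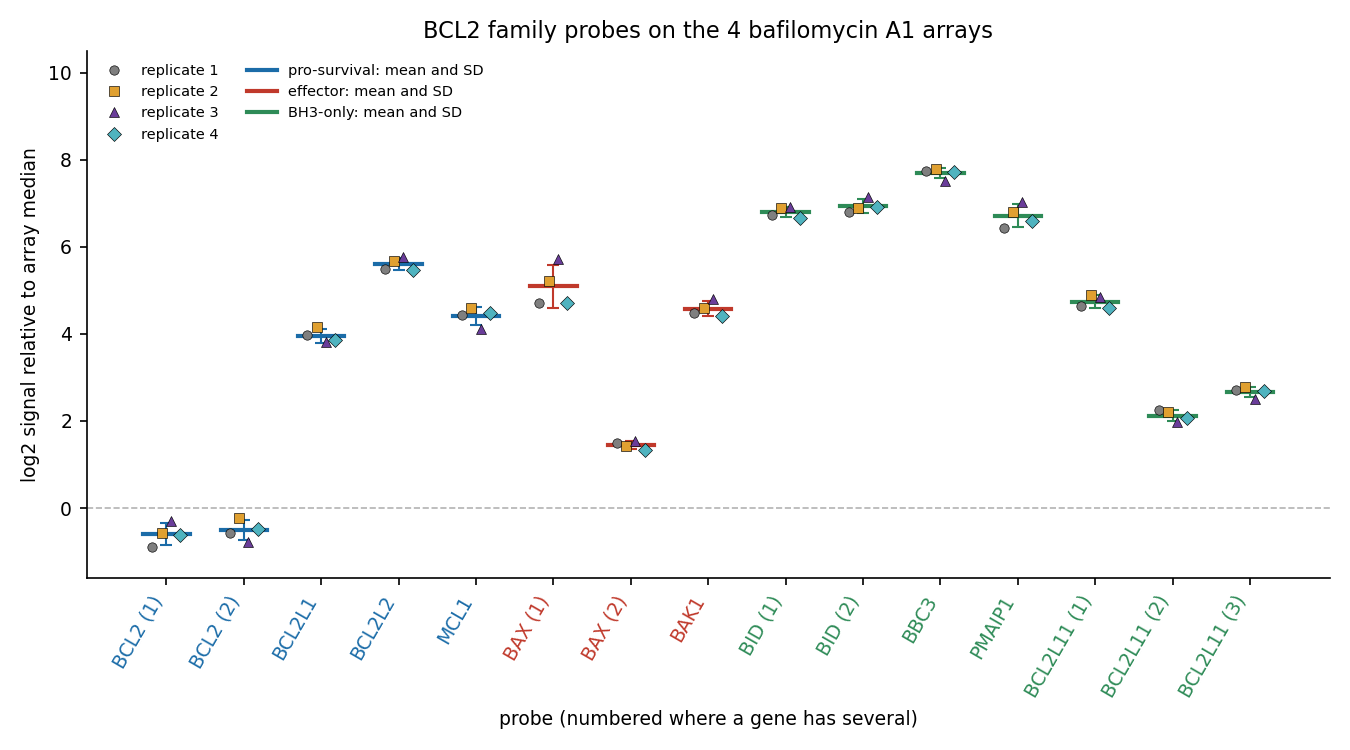
Level of each of the 15 probes (x axis, numbered where a gene has several probes) as log2 signal relative to the array median (y axis). Symbols are the 4 replicate arrays, and the horizontal line and bar give the mean and SD in the colour of the class. The BCL2 probes lie below the array median on every array, and the 4 arrays of most probes lie within 0.5 of each other.

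BCL2, the founding pro-survival member of the family, was measured close to background in these cells. Its probe 1 gave -0.90, -0.57, -0.30 and -0.61 on replicates 1 to 4. Its probe 2 gave -0.56, -0.22, -0.77 and -0.47. All 8 values lie below the array median, and both probes were still well above background, with a mean spot signal 2.37 to 3.14 times the local background. The arrays were ordered differently by the 2 probes: replicate 3 was the highest by probe 1 and the lowest by probe 2. The median over both probes, -0.55 ± 0.14 (SD, n = 4), therefore had a smaller spread than either probe, whose SDs were 0.24 and 0.23.

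BCL2L1, which encodes BCL-XL, gave 3.98, 4.17, 3.80 and 3.86 (mean 3.95 ± 0.16, SD, n = 4). Replicate 2 was the highest array and replicate 3 the lowest. BCL2L2, which encodes BCL-W, gave 5.49, 5.67, 5.76 and 5.47 (5.60 ± 0.14), and here replicates 2 and 3 were above replicates 1 and 4. MCL1, a pro-survival gene whose protein is bound by NOXA, gave 4.42, 4.60, 4.12 and 4.49 (4.41 ± 0.21). Its replicate 3 was below the other arrays, which lay within 0.2 of each other. The 4 arrays of MCL1 spanned 1.3996-fold, just inside the 1.4-fold change that the study used as its cutoff between conditions. None of the 4 pro-survival genes spanned more than 1.4-fold between arrays.

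Of the effectors, BAK1 gave 4.47, 4.60, 4.81 and 4.42 (4.57 ± 0.17, SD, n = 4), highest on replicate 3. BAX was measured by 2 probes with unlike spread. Probe 1 gave 4.70, 5.22, 5.72 and 4.71 (5.09 ± 0.49), a range of 2.04-fold between replicates 1 and 3. 4.07% of the detected probes on the array had a larger SD than this one. Probe 2, which the file lists for 1 BAX transcript, gave 1.48, 1.42, 1.54 and 1.34 (1.45 ± 0.08), a range of 1.14-fold, and 94.0% of detected probes had a larger SD. Both had replicate 3 as their highest array, but the difference between the probes was not constant, at 3.22, 3.80, 4.19 and 3.36 (3.64 ± 0.44). The gene value of BAX, the median over both probes, was 3.27 ± 0.27 and spanned 1.52-fold. This value takes its level from halfway between the probes and its spread mostly from probe 1.

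Of the BH3-only genes, BBC3, which encodes PUMA, gave 7.73, 7.78, 7.52 and 7.72 (7.69 ± 0.12, SD, n = 4), with replicate 3 below the other arrays. BID, whose protein is cleaved by caspase-8 to its active form, gave 6.73, 6.89, 6.92 and 6.67 by probe 1. By probe 2 it gave 6.80, 6.89, 7.15 and 6.91. Both BID probes had replicate 3 as the highest array, and their difference stayed within -0.24 and 0.00 (-0.13 ± 0.12). This difference varied less between arrays than that of the BAX probes, with an SD of 0.12 against 0.44. PMAIP1, which encodes NOXA, gave 6.43, 6.81, 7.03 and 6.58 (6.71 ± 0.26). Replicate 3 was the highest and replicate 1 the lowest, and the range was 1.52-fold.

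BCL2L11 encodes BIM, which binds all pro-survival members of the family and is made as several splice forms. Probe 1 gave 4.64, 4.88, 4.84 and 4.59 (4.74 ± 0.15, SD, n = 4). Probe 2 gave 2.25, 2.20, 1.98 and 2.06 (2.12 ± 0.13), and probe 3 gave 2.71, 2.78, 2.49 and 2.68 (2.67 ± 0.12). Probes 2 and 3 had replicate 3 as their lowest array, whereas on probe 1 the same array was above replicates 1 and 4. Probe 2 minus probe 3 varied little, by an SD of 0.07 around -0.54. Probe 1 minus probe 2 varied by 0.20 around 2.62, and probe 1 minus probe 3 by 0.20 around 2.07, with the largest difference on replicate 3 in both. The median over the 3 probes is the value of probe 3 on every array, so the gene value of BIM, 2.67 ± 0.12, holds no part of the brighter probe 1.

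With arrays centred on their median, most of the family varied less between arrays than the median detected gene. This turned after normexp correction and quantile normalization. The SD of the 10 genes ranged from 0.12 for BBC3 to 0.27 for BAX, with a median of 0.15, while the median over all 19083 detected genes was 0.21. After normexp correction and quantile normalization the median was 0.16 for the members and 0.11 for all detected genes. Here and below, quantile normalization stands for both steps. The normexp step added an offset of 50, where the signal of the median probe of an array was 63.5 to 77.1. Such an offset adds a larger share to dim probes than to bright ones, so dim and bright genes were not treated alike. Which step turned the order was not tested. With arrays centred on their median, the SD was below the median of all detected genes in 8 of the 10 members. After quantile normalization it was so only in BCL2, BCL2L2, BAK1 and BID. By class, the median SD with centring on the array median was 0.15 for the pro-survival genes, 0.22 for the effectors and 0.12 for the BH3-only genes. These are 4, 2 and 4 genes. After quantile normalization the SD was 0.01 for BID, 0.23 for BBC3, 0.15 for PMAIP1 and 0.16 for BCL2L11. For the effectors it was then 0.18 for BAX and 0.05 for BAK1, so by median they no longer lay above the BH3-only genes. With centring on the array median, BAX and PMAIP1 spanned more than 1.4-fold, 2 of 10 members, against 46.4% of all detected genes. Counted by probe it was 4 of 15, namely both BCL2 probes, BAX probe 1 and PMAIP1, against 43.5% of detected probes. With the same centring BBC3 had a smaller SD than 84.6% of detected genes and BAX a larger one than 68.1%. After quantile normalization BBC3 lay above BAX instead, as given above. The comparison with all detected genes is a description. A gene value with several probes is a median, and a detected gene may also hold probes that are not well above background, whereas no member has such a probe. Without replicate 3 no member spanned more than 1.4-fold and the median SD of the members was 0.10, and without replicate 1 only BAX did. The same values over all detected genes with an array left out were not computed. Replicate 3 was at one end of the range in 73.9% of all detected probes, so this fall is not shown to be particular to the family. Other scalings of the arrays changed the count as well. It was 2 (MCL1 and PMAIP1) when Agilent's processed signal was scaled to its 75th percentile, where 39.1% of all detected genes passed. It was 1 (MCL1) after quantile normalization, where 15.5% passed, and 6 when the median was taken over all probes, where 64.6% passed.

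**Figure D2:**
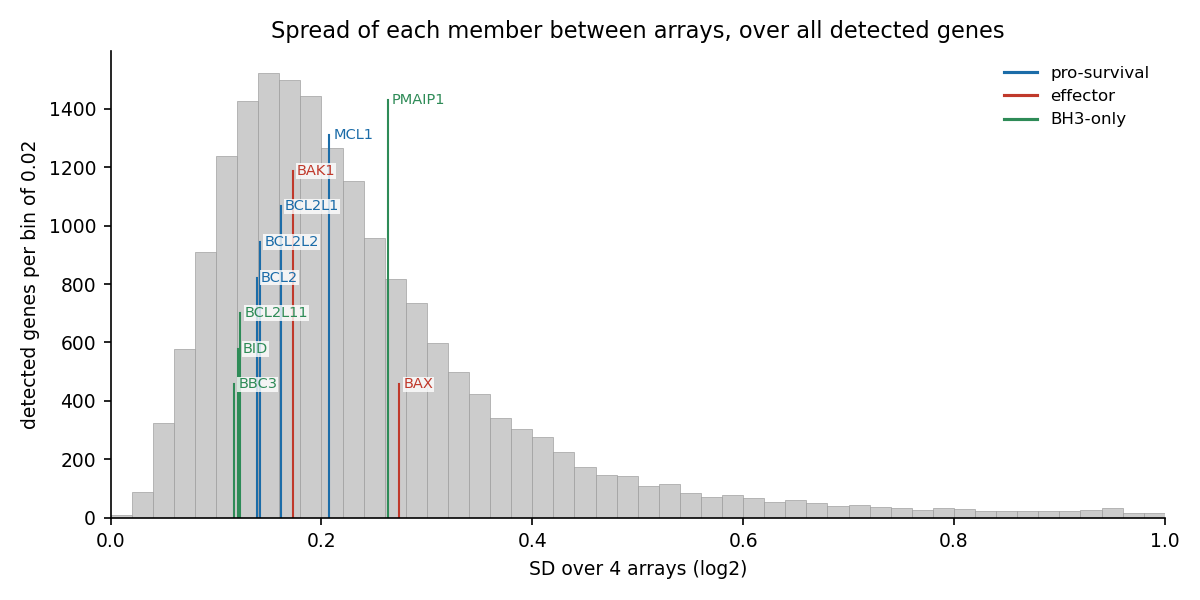
Number of detected genes (y axis) by SD over the 4 arrays in log2 units (x axis, bins of 0.02), with 845 genes above 1 not shown. Vertical lines mark the 10 members in the colour of their class, and their heights carry no value. With arrays centred on their median, as drawn here, BBC3, at 0.12, is the lowest of them, and BAX, at 0.27, the highest.

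The probes printed 10 times on each array separate the error within an array from that between arrays. These are BCL2 probe 1, the BCL2L1 probe and BAX probe 1. For BAX probe 1 the SD between spots of 1 array was 0.22 to 0.28, and the SD between the array values was 0.49. An array value is a mean over these spots, for which the spot error alone gives a standard error of 0.08, so the SD between arrays was 6.03 times that error. On replicate 3 its lowest spot lay at 5.42. The highest spots of replicates 1 and 4 lay at 5.04 and 5.01, so that these arrays did not overlap with replicate 3, while the spots of replicate 2 reached 5.53 and did overlap. For BCL2L1 the SD between spots was 0.12 to 0.14 and between arrays 0.16, or 3.74 times the standard error of 0.04. Its spots on replicate 2, from 4.02 to 4.34, did not overlap with those on replicate 3, from 3.64 to 4.00. For BCL2 probe 1 the SD between spots was 0.17 to 0.25 and between arrays 0.24, or 3.77 times the standard error of 0.06. Its highest spot on replicate 1, at -0.56, lay just below its lowest spot on replicate 3, at -0.54. Over the 673 detected probes with 10 spots, the median of this ratio was 3.33, so array values in general differed by more than the error between spots. For BAX probe 1, therefore, every spot on replicate 3 lay above every spot on replicate 1.

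**Figure D3:**
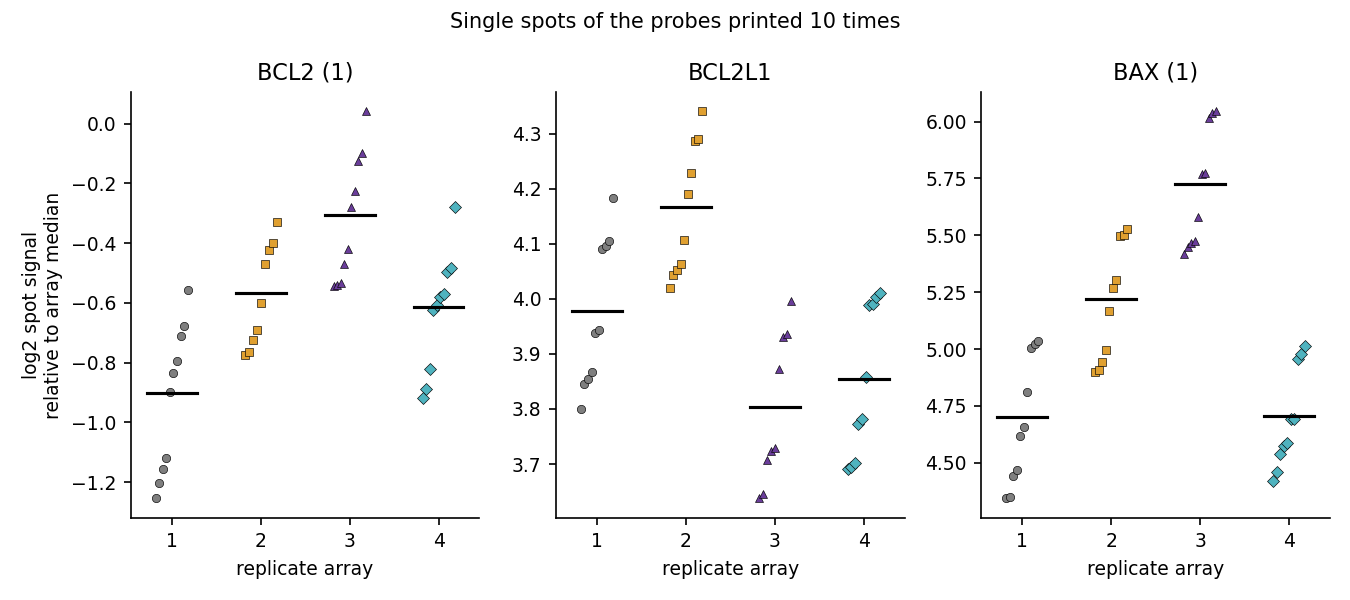
Level of each kept spot of BCL2 probe 1, the BCL2L1 probe and BAX probe 1 (y axes, log2 relative to the array median, each panel with its own range) on the 4 replicate arrays (x axes). Black lines are the array values, the log2 of the mean over spots. The BAX spots of replicate 3 lie above all those of replicates 1 and 4.

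Replicate 3 was at one end of the range in 14 of the 15 probes, the highest array in 8 and the lowest in 6. The exception was BCL2L11 probe 1, with replicate 2 the highest and replicate 4 the lowest. Over all detected probes replicate 3 was at one end in 73.9%, the highest in 50.4% and the lowest in 23.5%, so that most probes on the array share this behaviour and it is not particular to the family. On replicate 3, probes of both BCL2 and BCL2L11 lay on opposite sides of their means. By Dixon's ratio, 0 of the 10 genes and 0 of the 15 probes had 1 array apart from the other 3. Over all detected probes it was 7.3%, so a count of 0 among so few probes does not set the family apart. The share over all detected genes was not computed.

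**Figure D4:**
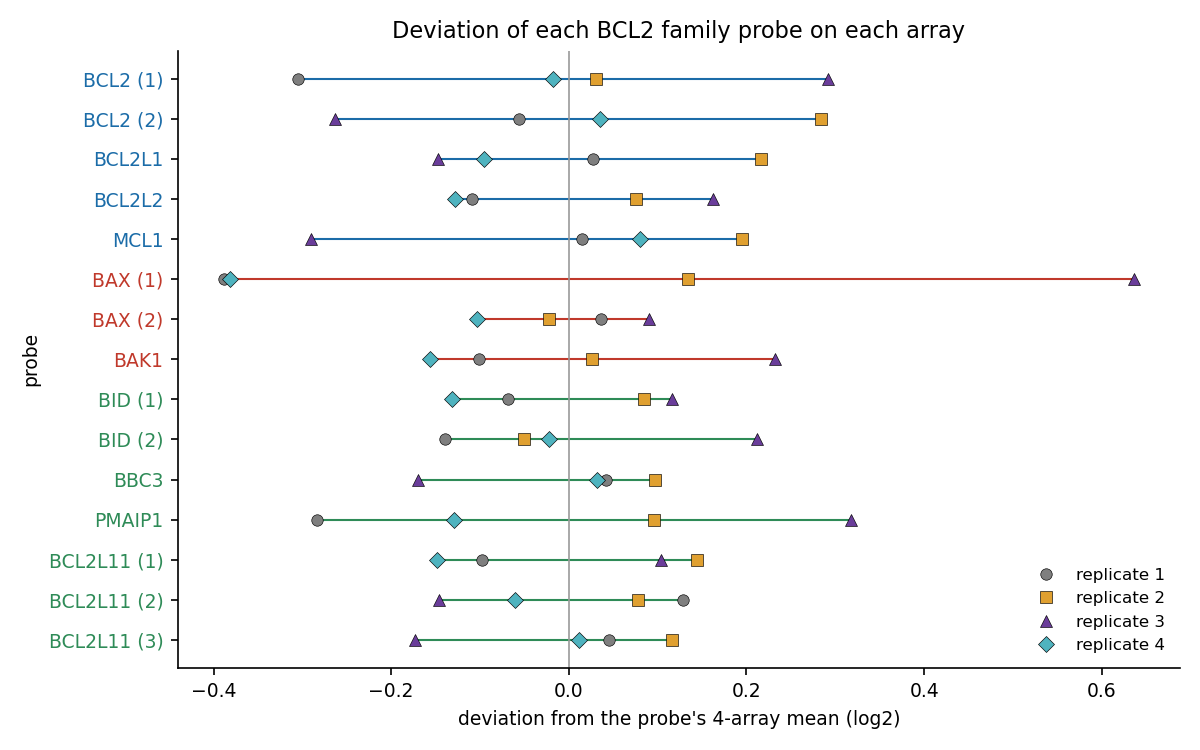
Deviation of each of the 15 probes from its own 4-array mean (x axis, log2) on each replicate array (symbols), with a line over its range in the colour of the class. Replicate 3 (triangles) is at one end for 14 of the 15 probes, on the right for 8 of them and on the left for 6.

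The direction on replicate 3 held for 11 of the 15 probes under all 4 scalings of the arrays. The share of all detected probes that kept their side was not computed, so this count is not shown to be particular to the family. A probe's deviation is its level on 1 array minus its mean over the 4 arrays. For BAX probe 1 it was 0.64 on replicate 3, and 0.56 for the processed signal, 0.46 after quantile normalization and 0.79 with the median over all probes. For PMAIP1 it was 0.32, with 0.27, 0.14 and 0.48 under the same alternatives. For MCL1 it was -0.29, with -0.38, -0.42 and -0.13. BBC3 gave -0.17, with -0.22, -0.34 and -0.01, which leaves almost nothing under the last. In all, 7 probes were above and 4 below their mean on replicate 3 under all 4 scalings. The 4 that changed side were BCL2L1 and BCL2L11 probe 2, below their mean except with the median over all probes, and BID probe 1 and BCL2L11 probe 1, above it except after quantile normalization. Both BCL2 probes kept to opposite sides under every scaling. The number of probes with replicate 3 as the highest and the lowest array was 8 and 6 as given above. It became 7 and 6 for the processed signal, 4 and 8 after quantile normalization and 10 and 0 with the median over all probes. The same shares over all detected probes were then 42.8% and 32.5%, 37.9% and 33.4%, and 68.2% and 12.4%.

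**Figure D5:**
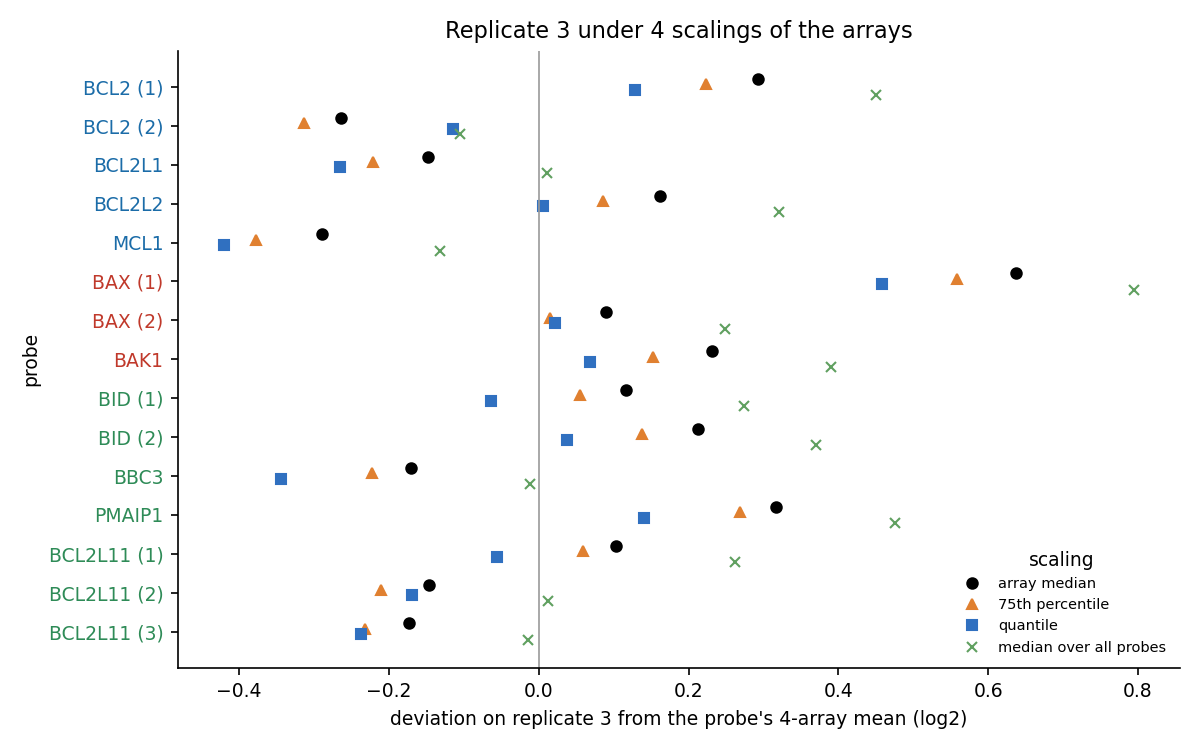
Deviation of each of the 15 probes on replicate 3 from its own 4-array mean (x axis, log2) under 4 scalings of the arrays (symbols). BAX probe 1 lies farthest to the right under each scaling, from 0.46 to 0.79, and MCL1 farthest to the left, from -0.42 to -0.13.

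The 3 classes were compared by the mean deviation of their genes on each array. The effectors deviated by -0.14, 0.04, 0.30 and -0.20 on replicates 1 to 4. The pro-survival genes deviated by -0.06, 0.16, -0.07 and -0.03, and the BH3-only genes by -0.08, 0.08, 0.03 and -0.04. Over all detected genes the mean deviation was -0.02, 0.03, 0.07 and -0.09. The SD of these means over the arrays was 0.22 for the effectors, which are only 2 genes, 0.11 for the pro-survival genes and 0.07 for the BH3-only genes. After quantile normalization the order of the first 2 turned, with 0.11 for the effectors, 0.12 for the pro-survival genes and 0.08 for the BH3-only genes. Within the other classes, single genes moved in opposite directions and cancelled. On replicate 3 the pro-survival mean held 0.16 for BCL2L2 and -0.29 for MCL1, and the BH3-only mean held 0.32 for PMAIP1 and -0.17 for both BBC3 and BCL2L11. The difference of the pro-survival minus the effector mean was 0.08, 0.12, -0.36 and 0.17 on replicates 1 to 4. After quantile normalization the effectors gave 0.15 and the pro-survival genes -0.17 on replicate 3. With the median over all probes both lay above 0, at 0.46 and 0.09. That difference rests on 1 array, and it was not tested.

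Differences between 2 genes on the same array do not depend on where the array is centred, so the balance of pro-survival to pro-apoptotic signals was also followed in this form. All 24 pairs of a pro-survival gene with an effector or a BH3-only gene were formed, which share members and are not independent. The pro-survival gene was lowest relative to its partner on replicate 3 in 17 of the 24 pairs, on replicate 4 in 4 and on replicate 1 in 3. Over all ordered pairs of detected genes the difference was lowest on replicate 3 in 34.6%. After quantile normalization it was 15, 4 and 5 of the 24, and 35.8% of all pairs were lowest on replicate 3. MCL1 was lowest there against all 6 partners. Before quantile normalization every pro-survival gene was also lowest there against BAX, BAK1 and PMAIP1. A few genes on both sides thus carry much of the count. MCL1 minus PMAIP1, the pair of MCL1 and NOXA, deviated by 0.30, 0.10, -0.61 and 0.21 from its mean, a range of 1.87-fold. BCL2L1 minus BAX deviated by 0.20, 0.16, -0.51 and 0.15, a range of 1.64-fold. BCL2L1 minus BAK1 deviated by 0.13, 0.19, -0.38 and 0.06, a range of 1.48-fold. In each of them replicate 3 alone was below the mean. Other pairs went the opposite way on replicate 3: BCL2L2 minus BBC3 and BCL2L2 minus BCL2L11 both deviated by 0.33, BCL2 minus BBC3 by 0.18 and BCL2 minus BCL2L11 by 0.19. In all, 18 pairs were below and 6 above their mean on that array. The pairs with values here were named after these were seen.

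Base composition was set beside these deviations, since probes rich in A and T tended to be higher on replicate 3. Over the 24633 detected probes, the Spearman correlation of the share of G and C with the deviation on replicate 3 was -0.44, against 0.44 on replicate 1, 0.10 on replicate 2 and 0.17 on replicate 4. Over the 15 member probes it was -0.17 on replicate 3. All points share the same 4 arrays, and these values only describe them. BCL2 follows the pattern of the whole array, with probe 1 (35.0%) high and probe 2 (55.0%) low on replicate 3. The BAX probes, both at 45.0%, deviated by 0.64 and 0.09. MCL1, at 35.0%, was low and BAK1, at 55.0%, was high on this array, against the pattern. The part of base composition in the results was not tested.

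Of the 11 other BCL2 family genes, 9 were detected on all 4 arrays. BCL2L10 and BCL2L14 were well above background on no array, with signals of at most 20.6 for BCL2L10 and 1.01 for BCL2L14, where the median probe of an array had 63.5 to 77.1. BAD, a BH3-only gene, gave 5.69 ± 0.10 by one probe and -1.05 ± 0.17 by the other (SD, n = 4), both detected. BCL2A1, a pro-survival gene, gave 4.54 ± 0.11 by the probe that was detected. Its second probe had signals below 0 on all arrays, as did the second probe of BCL2L15, whose detected probe gave 0.94 ± 0.25. BCL2L12 gave 6.08 ± 0.09 as the median over 2 detected probes with means of 4.55 and 7.60. BCL2L13 gave 1.36 ± 0.08 as the median over 3 detected probes with means of 3.76, 1.36 and -0.26. BMF had 1 probe detected on all arrays, at 1.71 ± 0.06, and 1 on 2 arrays, at -1.89 ± 0.55. The median SD over the 9 detected genes was 0.12. BCL2L15, BIK and BMF spanned more than 1.4-fold, and the 1.54-fold of BMF is that of the median over both probes and comes from the dim one.

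Transcripts of the machinery downstream of the effectors were detected as well. All 13 genes of the apoptosome, of the proteins released from mitochondria and of the inhibitors of apoptosis passed detection. Their SDs had a median of 0.18, and 6 of them spanned more than 1.4-fold. AIFM1, a flavoprotein released from mitochondria, lay at 5.45 ± 0.18 (SD, n = 4). APAF1, the scaffold of the apoptosome, lay at 0.05, 0.18, 0.88 and -0.04 on replicates 1 to 4, highest on replicate 3. Of the inhibitors of apoptosis, BIRC2 lay at 5.07 ± 0.23, BIRC3 at 4.30 ± 0.26 and BIRC5, which encodes survivin, at 7.73 ± 0.25. All 16 VDAC genes and binding partners of the family passed as well, and their median SD was 0.17. By gene value BAG1, BAG3, BNIP1, BNIP2 and FBXW7, named for this count, spanned more than 1.4-fold. BECN1, the autophagy protein that is bound by BCL2, lay at 5.67 ± 0.13. BAG1 lay at 6.15 ± 0.23, with 1 of its 3 probes left out on replicate 3 as an outlier. Its gene value there, 6.43, is the median over the remaining probes, and its range over 1.4-fold comes from this. No single BAG1 probe spanned more than 1.4-fold. Their lowest and highest values were 4.49 and 4.87, 5.86 and 6.17, and 6.64 and 6.84. BAG6 lay at 8.52 ± 0.09 and BNIP1 at 3.29 ± 0.24. BAG3, a co-chaperone, gave 4.23, 4.54, 3.56 and 3.95, and its replicate 3 was the lowest array as it was for MCL1. In both lists the share over 1.4-fold was below the 46.4% of all detected genes.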

How the data were processed

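Total RNA of each sample was labelled with Cy3 and hybridised to 1 Agilent array per sample, all 4 arrays on 1 slide. The authors deposited the scanner intensities as Agilent Feature Extraction 10.7.3.1 wrote them, with no normalization between arrays. The labels and the methods differ on the serum content of the medium. Coordinates are those of the array files, on GRCh37.

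As in the study's methods, the background-subtracted intensity was used. Control spots and spots with an outlier flag for the feature or its background were left out, spots of a probe were averaged on the linear scale, the log2 was taken of values above 0, and the median of the array over these probes was subtracted. A gene is the median over its probes on each array. A probe counted as detected where the scanner software flagged over 50% of its kept spots as well above background, and a gene when 1 of its probes was detected on all 4 arrays. The text names every member, each listed gene that was well above background on no array or on some, and up to 5 detected genes per list in alphabetical order. Pairs of genes, and genes named for a count over 1.4-fold, were chosen after their values were seen. Members and lists were chosen with earlier results of these data known. 1 listed cell type marker is not reported here. The number of arrays limits the precision.

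Alternatives were Agilent's processed signal scaled to its 75th percentile, normexp correction with an offset of 50 and quantile normalization (limma 3.58.1, R 4.3.3), other handling of outliers, dim probes and centring, and each array left out. Calculations used Python 3.11.15, pandas 2.3.3, numpy 2.4.6 and scipy 1.17.1, and the spread measures were checked on simulated data.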

Additional observations from a re-analysis of the deposited data

How the results depend on the processing

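All 10 members and all 15 of their probes were well above background under each alternative run, but most alternatives could not change this. Other scalings do not touch the detection flag. Probes detected on all 4 arrays also pass on at least 3 arrays, with each array left out or where every probe must be detected. That leaves other handling of outlier spots and another detection flag, under which all passed as well. Of the 11 other family genes the count was 9, and it was 10 with the flag for a positive and significant signal and 6 when every probe of a gene had to be detected. The 2 members that spanned more than 1.4-fold became 1 after normexp and quantile normalization, 6 when arrays were centred on the median over all probes, and 0 with 2-fold as the limit. They ranged from 0 to 2 with 1 array left out, where the share over all detected genes was not computed. The median SD of the members, 0.15, was 0.23 with that centring and otherwise 0.15 to 0.16 (against 0.11 for all detected genes after quantile normalization), and it ranged from 0.10 to 0.17 with 1 array left out. That centring also counts probes with no positive signal, as the lowest ones, which moves the median of the arrays by 0.99, 1.02, 1.12 and 1.22 on replicates 1 to 4, so distances between arrays change by construction. For the other changes the cause was not tested. Levels of members moved by less than their SD in all 60 comparisons with the same zero point and in all 40 with 1 array left out. The SD of single members moved by more than it varied between leave-outs in 18 of 80 comparisons. Replicate 3 was at one end of the range in 10 to 14 of the 15 probes under all alternatives that kept the 4 arrays. Leaving out only the outlier flags for features, and averaging spots on the log2 scale, were chosen after the data were seen. BCL2, whose mean spot signal was 2.37 to 3.14 times the local background, is the member closest to background. No paired analysis was possible because files of only 1 group were used here.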
